A study of Mus musculus with 13 samples.

Results

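Genes whose symbols begin with Slc are called solute carriers here, and 262 of them were detected in cultured mouse macrophages. They were chosen from the 338 Slc gene names on a one-colour Agilent whole-genome array. A name was kept when at least 1 of its probes was well above background, by the scanner's own flag, on every array of at least 1 of the 4 groups, and the brightest such probe stood for the gene. The rule leaves out 8 names (Slc7a1, Slc7a2, Slc7a11, Slc11a1, Slc11a2, Slc25a20, Slc40a1 and Slc48a1), and of the remaining 330 names 68 were not detected in any group. Of the 262 genes, 209 were well above background on every array of all 4 groups, 20 in 3 groups, 20 in 2 and 13 in 1. The 262 include 4 genes, Slc9a3r1 among them, that are named after a carrier and are not carriers. The counts of carriers below include them. The detection values that chose the genes can favour a gene that is high in a single group. The counts called higher and lower in the 4 comparisons between groups are therefore also given for the 209. Class shares, overlaps and the other counts below are for the 262 only and keep this limit.

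Bone marrow of male C57BL/6J mice aged 12 to 16 weeks was grown in medium with 30% L929-conditioned supernatant, a source of macrophage growth factor, to give macrophages. The groups were HDAC3 knockout (KO) macrophages with IL-4 (n = 3), control macrophages with IL-4 (n = 3), KO macrophages with vehicle (n = 3) and control macrophages with vehicle (n = 4). Every mouse carried floxed exons 4 to 7 of Hdac3, the controls included, and the KO mice also expressed Cre from the lysozyme M promoter, which is active in myeloid cells; no group had Cre without floxed Hdac3. IL-4 was given at 10 ng/mL for 24 hours, and the vehicle was 0.1% bovine serum albumin (BSA), although the source labels of the same samples call them untreated. Separate animals within a group are not stated in the labels, so p-values measure the spread between these arrays, which may be technical. Levels are log2 of the processed intensity minus the array's 75th percentile, so 0 is that percentile, and a level of 1 gene cannot be set against that of another.

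Solute carriers move nutrients, ions, vitamins and metabolites across the plasma membrane and the membranes of organelles. Families are numbered by sequence, and a family often shares a substrate: Slc2 carriers move sugars, Slc7 and Slc38 carriers amino acids, Slc25 carriers sit in the inner mitochondrial membrane, and Slc30 and Slc39 carriers move zinc out of and into the cytosol. IL-4 drives macrophages to alternative activation through the transcription factor STAT6, and HDAC3 is a histone deacetylase that acts within corepressor complexes. The genes were sorted into 15 substrate classes from this background knowledge.

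Hdac3 was measured at -3.16, -3.35 and -4.02 in KO IL-4 arrays and at -1.89, -2.28 and -1.80 in control IL-4 arrays. It was at -3.67, -3.12 and -3.46 in KO vehicle arrays and at -1.70, -2.14, -2.01 and -2.18 in control vehicle arrays. All KO arrays lay below all control arrays, with log2 fold changes of -1.52 ± 0.23 (SE, adjusted p = 0.00391) under IL-4 and -1.41 ± 0.22 (SE, adjusted p = 0.00292) in vehicle. The Hdac3 probe was well above background on only 2 of the 3 KO IL-4 arrays, so the fold change under IL-4 has no settled size. Whether this probe lies within the deleted exons was not analysed here. The arrays differed in depth: between 56.2% (control vehicle array 4) and 83.2% of spots were well above background, and between 218 (83.2%) and 262 of the 262 carriers. KO IL-4 array 15 was the next lowest, at 61.1% of spots. The 9 macrophage markers on the array were well above background on every array. Among markers of other cells, the summed level of the 5 dendritic markers was 1.61 to 1.84 in KO IL-4 and 1.48 to 1.58 in control IL-4 arrays, against 0.93 to 1.05 in KO vehicle and 0.79 to 1.08 in control vehicle arrays. Of these, Batf3 averaged 0.95 in KO IL-4 and 0.56 in control IL-4 arrays, against -1.34 in KO vehicle and -1.55 in control vehicle arrays, while Ccr7 exceeded the background on 0 of 13 arrays. In the same order of groups, Zbtb46 averaged 0.08, 0.08, 0.26 and 0.29, and Xcr1 -3.14, -3.28, -2.82 and -2.48, both lower with IL-4. Flt3 averaged -2.31, -2.50, -2.07 and -2.62, so the higher sum with IL-4 came from Batf3. The summed level of the 4 eosinophil markers was 4.51 to 4.66 in KO IL-4, 4.77 to 5.17 in control IL-4, 4.34 to 4.56 in KO vehicle and 5.25 to 5.45 in control vehicle arrays. Ccr3 made up most of that sum, with means of 4.54, 4.91, 4.41 and 5.32 in the same order of groups. The part of other cells in the carrier results was not tested, and in bulk RNA fewer cells of a type and less RNA per cell cannot be told apart.

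HDAC3 loss and IL-4 each moved a minority of the carriers in both directions. HDAC3 loss in vehicle raised 8 of the 262 carriers (3.05%), against a background of 2.44% of the 20595 genes tested, and lowered 8 (3.05%), against 2.28%. IL-4 raised 12 carriers in control cells (4.58%), against 2.8% of genes, and lowered 18 (6.87%), against 2.9%. In KO cells IL-4 raised 3 carriers (1.15%), against 1.18% of genes, and lowered 5 (1.91%), against 1.03%. HDAC3 loss under IL-4 raised 9 carriers (3.44%), against 2.07%, and lowered 7 (2.67%), against 1.64%. Fitted on the 2 IL-4 groups alone, this last comparison called 0 carriers higher and 0 lower, and its 16 calls had adjusted p between 0.0522 and 0.294. Among the 209 carriers detected in every group, HDAC3 loss in vehicle raised 8 (3.83%) and lowered 7 (3.35%), against 2.97% and 2.72% of the 16185 genes so detected. IL-4 in control cells raised 12 of the 209 (5.74%) and lowered 15 (7.18%), against 3.23% and 3.51%. Of the 209, 3 (1.44%) were higher and 3 lower with IL-4 in KO cells, against 1.3% and 1.17%. With HDAC3 loss under IL-4, 9 (4.31%) were higher and 4 (1.91%) lower, against 2.51% and 1.83%. In all, 42 carriers (16.0%) were called in at least 1 of these comparisons, against 1979 of 20595 genes (9.61%). A call means an adjusted p under 0.05 in limma, a linear model fitted to all 13 arrays and adjusted over the 20595 genes. The median log2 fold change of the carriers and of all genes was 0.03 and 0.02 for HDAC3 loss in vehicle, -0.04 and 0.01 for IL-4 in control cells, -0.05 and -0.04 for IL-4 in KO cells, and -0.0003 and -0.02 for HDAC3 loss under IL-4.

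**Figure D1:**
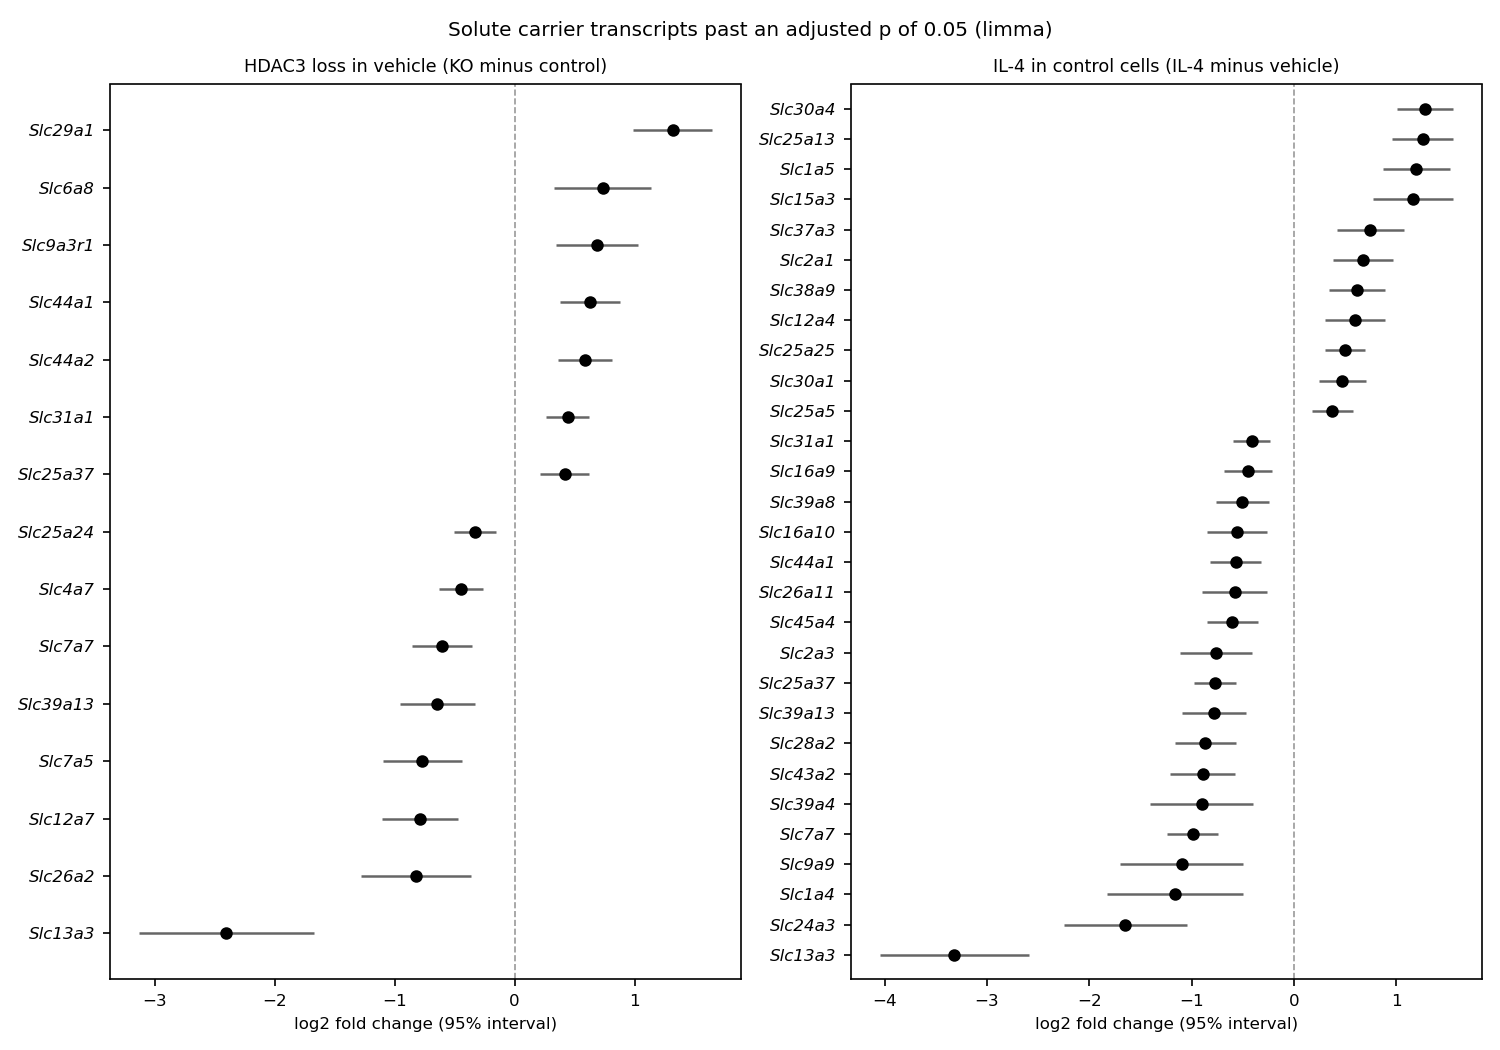
Log2 fold change (x axis) with its 95% interval for the carriers reported here by name that were called for HDAC3 loss in vehicle (KO minus control, left) and for IL-4 in control cells (IL-4 minus vehicle, right). Slc13a3 lies lowest in both panels, at -2.40 and -3.32, while Slc29a1 (1.32) and Slc30a4 (1.28) lie highest.

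Each group sat at its own position on the slides, and the effects of position and of group cannot be told apart, but every slide held several groups. The rule given with the processing names carriers with 69 calls in these comparisons. With the slide as a fixed block, 26 of the 69 were lost. For HDAC3 loss in vehicle these were Slc25a24, Slc25a37, Slc26a2, Slc39a13, Slc4a7, Slc6a8 and Slc9a3r1 (adjusted p between 0.0503 and 0.147). For HDAC3 loss under IL-4 they were Slc13a3, Slc24a3, Slc25a24, Slc25a35, Slc26a11, Slc44a2, Slc45a4 and Slc9a3r1 (adjusted p between 0.0542 and 0.101). For IL-4 in KO cells they were Slc30a4, Slc43a2 and Slc7a3 (adjusted p between 0.0606 and 0.0823), and in control cells Slc12a4, Slc16a9, Slc1a4, Slc25a5, Slc26a11, Slc30a1, Slc39a8 and Slc9a9 (adjusted p between 0.061 and 0.116). With the compared groups fitted alone, 34 were lost: all 16 for HDAC3 loss under IL-4, 7 of the 8 for IL-4 in KO cells (adjusted p between 0.0781 and 0.269), that of Slc24a3 being kept, 8 for IL-4 in control cells (Slc16a9, Slc1a4, Slc25a5, Slc30a1, Slc31a1, Slc38a9, Slc39a4 and Slc9a9, adjusted p between 0.0535 and 0.095), and Slc25a24, Slc26a2 and Slc6a8 for HDAC3 loss in vehicle (adjusted p between 0.0737 and 0.103). Of the 69 calls, 17 held under every alternative processing tried and without each array in turn. They were Slc13a3 and Slc29a1 for HDAC3 loss in vehicle, Slc24a3 for IL-4 in KO cells, and 14 for IL-4 in control cells, among them Slc13a3, Slc24a3, Slc30a4, Slc25a13, Slc1a5, Slc15a3, Slc7a7, Slc43a2, Slc28a2, Slc2a1, Slc37a3, Slc25a25 and Slc25a37. The other 52 lost their call, with no change of sign, in at least 1 setting. Of the 69, 21 were lost with no filter on dim probes and 18 with the mean of the detected probes. With the median in place of the 75th percentile, 37 of the 69 were lost. The higher and lower counts were then 1 and 3 for HDAC3 loss in vehicle, 3 and 5 for HDAC3 loss under IL-4, 2 and 2 for IL-4 in KO cells, and 8 and 8 for IL-4 in control cells. With the authors' own normalized values the split for IL-4 in KO cells was 3 and 8.

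Counts near the threshold also moved when 1 array was left out. For HDAC3 loss in vehicle, the higher count fell to 3 without KO vehicle array 5 or 6, to 4 without control vehicle array 1, 2 or 3, and to 5 without control vehicle array 4. The lower count fell to 4 without KO vehicle array 5 or 7, to 3 without KO vehicle array 6, and to 5 without control vehicle array 3 or 4. For IL-4 in control cells the lower count fell to 10 without control IL-4 array 10 and to 11 without control vehicle array 1, 3 or 4. For IL-4 in KO cells the higher count fell to 1 without KO vehicle array 7, and the lower count to 3 without KO IL-4 array 14 or KO vehicle array 5. For HDAC3 loss under IL-4 the higher count fell to 5 without control IL-4 array 10 and to 4 without control IL-4 array 12. The lower count fell to 2 without control IL-4 array 9, to 3 without KO IL-4 array 15 or control IL-4 array 12, and to 4 without KO IL-4 array 14.

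Slc13a3, a sodium-coupled importer of dicarboxylates such as succinate and alpha-ketoglutarate, had the largest fall among the called carriers for HDAC3 loss in vehicle and for IL-4 in control cells. Its probe lies on the minus strand of chromosome 2 (mm9, chr2:165231321-165231380). Slc13a3 was at -3.76, -4.47 and -5.09 in KO IL-4 arrays and at -2.95, -2.76 and -2.63 in control IL-4 arrays. It was at -2.31, -2.25 and -1.04 in KO vehicle arrays and at 0.35, 0.37, 0.75 and 0.69 in control vehicle arrays. The 4 groups did not overlap, the control vehicle arrays were highest, and only 1 of the 3 KO IL-4 arrays was well above background. IL-4 lowered it 9.97-fold in control cells (log2 fold change -3.32 ± 0.33, SE, adjusted p = 0.000101) and by 2.58 ± 0.36 on the log2 scale in KO cells (log2 fold change -2.58, adjusted p = 0.00233). HDAC3 loss lowered Slc13a3 5.29-fold with vehicle (log2 fold change -2.40 ± 0.33, SE, adjusted p = 0.00152) and the gene was also called lower under IL-4 (log2 fold change -1.66 ± 0.36, SE, adjusted p = 0.0241). As 2 of the 3 KO IL-4 arrays were not well above background, the differences from that group have no settled size. Another processing used normexp background correction of the unprocessed intensity with an offset of 50, then quantile normalization. With it the log2 fold changes of Slc13a3 were -2.17 for IL-4 in control cells and -1.70 for HDAC3 loss in vehicle. They were -0.92 for IL-4 in KO cells and -0.45 for HDAC3 loss under IL-4, the last without a call (adjusted p = 0.186). The call for HDAC3 loss under IL-4 was lost without KO IL-4 array 14 or 15 or without control IL-4 array 9, 10 or 12 (adjusted p between 0.0547 and 0.0944). Mono- and dicarboxylate carriers numbered 17, of which 2 (11.8%) were called, beside 16.0% of all 262 carriers and 9.61% of all genes. Besides Slc13a3, Slc16a9 was called: it averaged 0.09 ± 0.06 in control IL-4 and 0.54 ± 0.12 in control vehicle arrays (log2 fold change -0.45, adjusted p = 0.031). This call was lost without control IL-4 array 9, 10 or 12 or control vehicle array 1, 3 or 4 (adjusted p between 0.0608 and 0.126). The lactate carriers Slc16a1, an importer and exporter, and Slc16a3, an exporter of glycolytic cells, passed in no comparison. Slc16a3 had log2 fold changes of -0.32 for HDAC3 loss in vehicle and -0.36 for HDAC3 loss under IL-4, and Slc16a1 of 0.22 and 0.29.

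**Figure D2:**
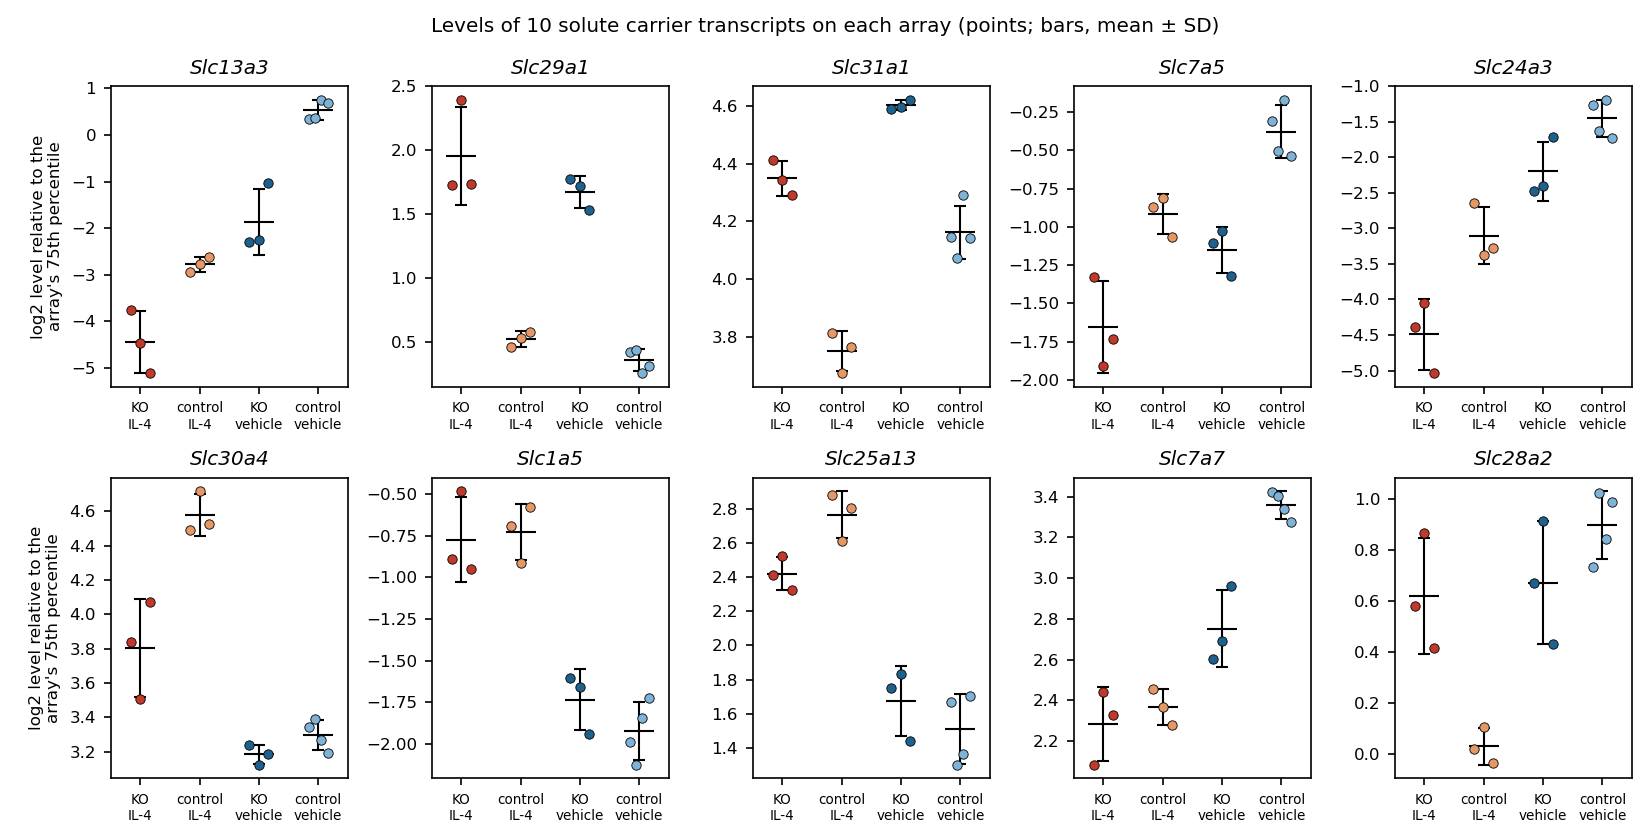
Levels of 10 carriers on each array (points, log2 relative to the array's 75th percentile) in KO IL-4, control IL-4, KO vehicle and control vehicle cells, with the group mean and SD (bars) and a separate y axis for each gene. Slc29a1 is at or above 1.53 in all KO arrays and at or below 0.58 in all control arrays; Slc13a3 is above 0 only in control vehicle arrays.

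Among the 6 nucleoside carriers, Slc29a1 rose with HDAC3 loss and Slc28a2 fell with IL-4 in control cells. Only these 2 (33.3%) were called, beside 16.0% of all 262 carriers and 9.61% of all genes. Slc29a1, which lets nucleosides such as adenosine cross the plasma membrane down their gradient, was at 1.73, 2.40 and 1.74 in KO IL-4 arrays, against 0.46, 0.53 and 0.58 in control IL-4 arrays. It was at 1.77, 1.72 and 1.53 in KO vehicle arrays, against 0.42, 0.43, 0.26 and 0.31 in control vehicle arrays. The KO arrays lay above the control arrays with no overlap, by 2.7-fold under IL-4 (log2 fold change 1.43 ± 0.16, SE, adjusted p = 0.000625) and 2.49-fold with vehicle (log2 fold change 1.32 ± 0.15, SE, adjusted p = 0.000453). With the 2 IL-4 groups alone the first missed the threshold (adjusted p = 0.0522). IL-4 itself gave log2 fold changes of 0.28 in KO cells (adjusted p = 0.536) and 0.17 in control cells (adjusted p = 0.739). The Slc29a1 probe is on chromosome 17 (mm9, chr17:45722368-45722427, minus strand). Slc28a2, which uses the sodium gradient to import purine nucleosides, was at 0.02, 0.11 and -0.04 in control IL-4 arrays, against 0.73, 1.02, 0.84 and 0.99 in control vehicle arrays. These groups did not overlap, and IL-4 lowered it in control cells (log2 fold change -0.87 ± 0.14, SE, adjusted p = 0.00262). In KO cells it was at 0.58, 0.86 and 0.41 with IL-4, against 0.67, 0.91 and 0.43 with vehicle. These overlapped, with a log2 fold change of -0.05 (adjusted p = 0.927). Slc28a2 had the smallest unadjusted p among the carriers for the difference between the IL-4 responses of KO and control cells (0.81 ± 0.20, SE, unadjusted p = 0.00185), which did not pass after adjustment (adjusted p = 0.732). Slc29a3, a lysosomal nucleoside carrier, was called in no comparison: 1 control IL-4 array stood at 0.69 beside -1.0 and -0.89 in that group.

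The promoters of the carriers that responded to IL-4 were searched for the palindromes bound by STAT proteins, TTCNNNNGAA, the spacing STAT6 prefers, and TTCNNNGAA, in the 250 bases before each start site (RefSeq, GRCm38.p6). Both read the same on either strand. GAGGAA and its reverse TTCCTC, the core bound by the macrophage factor PU.1, was also searched, and it can overlap the first of them. Of the 262 carriers, 204 had an entry, with 269 start sites. TTCNNNNGAA was present in 4.83% of these windows and in 5.85% of the 32851 windows of all genes. It was present in 2 of the 21 windows of carriers lowered by IL-4 in control cells (Slc28a2 and Slc43a2) and in 0 of the 12 windows of carriers raised. TTCNNNGAA was present in 5.20% of carrier windows and 7.02% of all windows, among them those of Slc28a2 and Slc38a9. The PU.1 core was present in 19.3% of carrier windows and 23.3% of all windows. Below are the windows of Slc28a2 (chr2:122426185-122426434, plus strand), in which the capitals mark TTCNNNNGAA from base -201 and TTCNNNGAA from base -126, and, for comparison, of the strongest responders in each direction, Slc30a4 (chr2:122702664-122702913, minus strand) and Slc13a3 (chr2:165473198-165473447, minus strand), which hold neither. A match is a description of the letters and no evidence of binding.
Slc28a2: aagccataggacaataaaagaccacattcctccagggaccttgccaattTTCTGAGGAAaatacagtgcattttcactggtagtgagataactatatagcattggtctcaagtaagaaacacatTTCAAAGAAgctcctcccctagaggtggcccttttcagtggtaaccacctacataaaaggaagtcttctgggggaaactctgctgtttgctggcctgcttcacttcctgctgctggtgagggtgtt
Slc30a4: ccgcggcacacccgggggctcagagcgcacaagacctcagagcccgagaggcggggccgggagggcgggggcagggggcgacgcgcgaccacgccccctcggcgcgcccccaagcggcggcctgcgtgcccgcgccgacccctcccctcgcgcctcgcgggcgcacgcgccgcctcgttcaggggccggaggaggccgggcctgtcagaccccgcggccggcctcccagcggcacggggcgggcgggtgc
Slc13a3: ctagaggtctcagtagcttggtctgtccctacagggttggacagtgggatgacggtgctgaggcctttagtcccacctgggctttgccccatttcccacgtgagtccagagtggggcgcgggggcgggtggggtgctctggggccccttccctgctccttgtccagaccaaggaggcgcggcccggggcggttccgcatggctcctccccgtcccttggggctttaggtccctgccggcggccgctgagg

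The amino acid and peptide class held 40 carriers, of which 9 (22.5%) were called in some comparison. Beside this, 16.0% of all 262 carriers and 9.61% of all genes were called in at least 1. IL-4 raised the glutamine importer Slc1a5 in both genotypes. Slc1a5 was at -0.89, -0.48 and -0.95 in KO IL-4 arrays, against -1.61, -1.66 and -1.94 in KO vehicle arrays. It was at -0.69, -0.91 and -0.58 in control IL-4 arrays, against -1.99, -2.13, -1.85 and -1.72 in control vehicle arrays. No IL-4 array overlapped a vehicle array, and the rise was 1.95-fold in KO cells (adjusted p = 0.00754) and 2.29-fold in control cells (log2 fold change 1.19 ± 0.15, SE, adjusted p = 0.000497). Slc15a3, a lysosomal carrier of histidine and peptides, rose with IL-4 in control cells. It was at 4.67, 4.17 and 4.25 in control IL-4 arrays, against 3.28, 3.02, 3.21 and 3.28 in control vehicle arrays (2.24-fold, adjusted p = 0.00199). In KO cells it was at 4.15, 4.84 and 4.15 with IL-4, against 3.67, 3.62 and 3.44 with vehicle, again without overlap, but the change did not pass (log2 fold change 0.81, adjusted p = 0.0563). Slc38a9, a lysosomal amino acid sensor that signals to mTORC1, also rose with IL-4 in control cells (log2 fold change 0.61, adjusted p = 0.013). Its call was lost without control IL-4 array 9 (adjusted p = 0.063) or 12 (adjusted p = 0.0628), and a second probe gave 0.25.

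4 members of the same class fell with IL-4 in control cells, namely Slc7a7, Slc43a2, Slc1a4 and Slc16a10. Slc7a7, the light chain that exchanges cationic for neutral amino acids and pairs with the heavy chain Slc3a2, was at 2.46, 2.37 and 2.28 in control IL-4 arrays, against 3.42, 3.40, 3.34 and 3.27 in control vehicle arrays. The fall was 1.99-fold (log2 fold change -0.99 ± 0.11, SE, adjusted p = 0.000284), without overlap. HDAC3 loss alone also lowered it, to 2.60, 2.69 and 2.96 in KO vehicle arrays (log2 fold change -0.61, adjusted p = 0.00983), a call lost without KO vehicle array 5 or 6 (adjusted p = 0.0685 and 0.0605). Slc43a2, a uniporter of large neutral amino acids, was at 0.36, 0.38 and 0.28 in KO IL-4 arrays, against 1.25, 1.05 and 0.96 in KO vehicle arrays. It was at -0.13, 0.53 and -0.04 in control IL-4 arrays, against 1.03, 0.94, 1.12 and 0.96 in control vehicle arrays. IL-4 lowered it in both genotypes, with log2 fold changes of -0.75 in KO cells (adjusted p = 0.0283) and -0.89 in control cells (adjusted p = 0.00293), and a second probe gave -0.46 and -0.71. The KO call was lost without any 1 of the KO arrays, 13, 14 and 15 with IL-4 and 5, 6 and 7 with vehicle (adjusted p between 0.0624 and 0.127). Slc1a4, a carrier of alanine, serine and cysteine, averaged -3.21 ± 0.56 in control IL-4 and -2.05 ± 0.24 in control vehicle arrays (SD, n = 3 and 4). Its log2 fold change was -1.17 (adjusted p = 0.0456), and the call was lost without any 1 of 10 arrays, namely KO IL-4 array 15, control IL-4 array 9 or 10, KO vehicle array 5, 6 or 7 and control vehicle array 1, 2, 3 or 4 (adjusted p between 0.0574 and 0.199). With normexp background correction and quantile normalization the log2 fold change of Slc1a4 was only -0.39 (adjusted p = 0.0497), so its size depends on the processing. Slc16a10, a carrier of aromatic amino acids that lay outside the naming rule and is named after its value was seen, had a log2 fold change of -0.56 with IL-4 in control cells (adjusted p = 0.0311), while its second probe gave -0.10.

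HDAC3 loss lowered Slc7a5, the light chain that imports leucine and other large neutral amino acids, in both treatments. Slc7a5 was at -1.33, -1.91 and -1.73 in KO IL-4 arrays, against -0.87, -0.81 and -1.07 in control IL-4 arrays. It was at -1.11, -1.03 and -1.32 in KO vehicle arrays, against -0.31, -0.51, -0.17 and -0.54 in control vehicle arrays. Neither pair of groups overlapped. The log2 fold changes were -0.74 ± 0.16 (SE, adjusted p = 0.0254) under IL-4 and -0.77 ± 0.15 (SE, adjusted p = 0.0118) in vehicle. The first call was lost without KO IL-4 array 14 or 15 or control IL-4 array 9 or 10 (adjusted p between 0.0777 and 0.0991), and the second without KO vehicle array 7 (adjusted p = 0.0509). Its heavy chain Slc3a2, which carries the light chains to the cell surface, did not pass, with log2 fold changes of -0.26 (adjusted p = 0.298) under IL-4 and -0.30 (adjusted p = 0.181) in vehicle. Slc7a3, a carrier of cationic amino acids, fell with IL-4 in KO cells (log2 fold change -0.59, adjusted p = 0.0223), where it was at -2.11, -2.30 and -2.04 with IL-4, against -1.58, -1.71 and -1.40 with vehicle. That call was lost without KO IL-4 array 13 or 14 or KO vehicle array 5 or 7 (adjusted p between 0.0506 and 0.111), and in control cells the log2 fold change was 0.01 (adjusted p = 0.982).

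Carriers of zinc, copper and magnesium numbered 23, of which 6 (26.1%) were called, beside 16.0% of all 262 carriers and 9.61% of all genes. Slc30a4, a zinc carrier that fills intracellular vesicles, was at 3.84, 3.51 and 4.07 in KO IL-4 arrays, against 3.24, 3.13 and 3.19 in KO vehicle arrays. It was at 4.49, 4.72 and 4.53 in control IL-4 arrays, against 3.34, 3.39, 3.27 and 3.19 in control vehicle arrays. IL-4 arrays lay above vehicle arrays in both genotypes, and among IL-4 arrays the KO ones were lower, without overlap. IL-4 raised it 2.43-fold in control cells (log2 fold change 1.28 ± 0.13, SE, adjusted p = 8.82e-05) and 1.54-fold in KO cells (log2 fold change 0.62 ± 0.13, SE, adjusted p = 0.0357), and HDAC3 loss lowered it under IL-4 (log2 fold change -0.77, adjusted p = 0.00794, or 0.17 with the 2 IL-4 groups alone). The call in KO cells was lost without any 1 of 10 arrays, namely KO IL-4 array 13 or 15, control IL-4 array 12, KO vehicle array 5, 6 or 7 and control vehicle array 1, 2, 3 or 4 (adjusted p between 0.0511 and 0.131). The difference between the 2 responses was -0.66 ± 0.18 (SE, unadjusted p = 0.00416) and did not pass after adjustment (adjusted p = 0.848). Slc30a1, which exports zinc at the plasma membrane, rose with IL-4 in control cells (log2 fold change 0.47, adjusted p = 0.0193), a call lost without control IL-4 array 12 (adjusted p = 0.104) or control vehicle array 4 (adjusted p = 0.0518).

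Slc31a1, the high-affinity copper importer, moved in opposite directions with HDAC3 loss and with IL-4. It was at 4.41, 4.34 and 4.29 in KO IL-4 arrays, against 3.81, 3.67 and 3.76 in control IL-4 arrays. It was at 4.59, 4.60 and 4.62 in KO vehicle arrays, against 4.15, 4.07, 4.29 and 4.14 in control vehicle arrays. The KO arrays lay above the control arrays of the same treatment without overlap, with log2 fold changes of 0.60 (adjusted p = 0.00297, or 0.126 with the 2 IL-4 groups alone) under IL-4 and 0.44 (adjusted p = 0.00924) in vehicle. IL-4 lowered it in control cells (log2 fold change -0.41, adjusted p = 0.0107), a call lost without control IL-4 array 10 (adjusted p = 0.0521). A second Slc31a1 probe gave 1.02 and 0.55 for HDAC3 loss under IL-4 and in vehicle, and -0.58 for IL-4 in control cells. Zinc importers that fell with IL-4 in control cells were Slc39a13, of the Golgi and vesicles (log2 fold change -0.78, adjusted p = 0.00615), Slc39a4 (-0.90, adjusted p = 0.0419) and Slc39a8, which also carries manganese (-0.51, adjusted p = 0.0273). Slc39a4 lost its call without KO IL-4 array 13 or 15, control IL-4 array 10 or 12, KO vehicle array 5 or control vehicle array 1, 3 or 4 (adjusted p between 0.0585 and 0.182). Slc39a8 lost it without control IL-4 array 9, 10 or 12 or control vehicle array 1, 2 or 4 (adjusted p between 0.0549 and 0.0986), and its second probe gave -0.12. HDAC3 loss in vehicle lowered Slc39a13, to 1.36, 1.55 and 1.48 in KO vehicle arrays, against 1.99, 2.06, 2.26 and 2.13 in control vehicle arrays (log2 fold change -0.65, adjusted p = 0.0239). That call was lost without KO vehicle array 5, 6 or 7 or control vehicle array 2, 3 or 4 (adjusted p between 0.0516 and 0.124), and a second probe gave -0.08.

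Of the choline carriers, Slc44a1 and Slc44a2 rose with HDAC3 loss. Slc44a1, a choline carrier of the plasma membrane and mitochondria, was at 3.15, 3.14 and 2.90 in KO IL-4 arrays, against 2.25, 2.34 and 2.45 in control IL-4 arrays. It was at 3.63, 3.70 and 3.30 in KO vehicle arrays, against 2.92, 2.86, 2.90 and 3.0 in control vehicle arrays. The KO arrays lay above the control arrays of the same treatment, with log2 fold changes of 0.72 (adjusted p = 0.00709, or 0.114 with the 2 IL-4 groups alone) under IL-4 and 0.63 (adjusted p = 0.00807) in vehicle, the call in vehicle being lost without KO vehicle array 5 or 6 (adjusted p = 0.0546 and 0.0559). IL-4 lowered Slc44a1 in control cells (log2 fold change -0.57, adjusted p = 0.0108), a call lost without control IL-4 array 9 (adjusted p = 0.0514). Its second probe gave 0.54 and 0.13 for HDAC3 loss under IL-4 and in vehicle, and -0.67 for IL-4 in control cells. Slc44a2, a related choline carrier, had log2 fold changes of 0.50 (adjusted p = 0.0292) for HDAC3 loss under IL-4 and 0.59 (adjusted p = 0.0066) for HDAC3 loss in vehicle, and its second probe gave 0.53 and 0.52. The first of these calls was lost without KO IL-4 array 14 or 15 or control IL-4 array 9, 10 or 12 (adjusted p between 0.0689 and 0.102). Slc44a3, of the same family, was not called: it was at -2.22, -2.14 and -1.91 in KO vehicle arrays, against -1.75, -1.97, -1.72 and -1.75 in control vehicle arrays (log2 fold change -0.29, adjusted p = 0.274), and these groups overlapped. The fatty acid carriers Slc27a1 and Slc27a4 passed in no comparison. In all, 2 of the 8 genes of this class (25%) were called, beside 16.0% of all 262 carriers and 9.61% of all genes. Slc6a8, the creatine importer and the only called member (7.69%) of the 13 neurotransmitter and osmolyte carriers, rose with HDAC3 loss in vehicle. It was at 2.78, 2.80 and 2.25 in KO vehicle arrays, against 2.0, 1.56, 1.98 and 1.95 in control vehicle arrays (log2 fold change 0.74, adjusted p = 0.0442). The call was lost without KO IL-4 array 13, control IL-4 array 10 or 12, KO vehicle array 5 or 6, or control vehicle array 1, 2, 3 or 4 (adjusted p between 0.0556 and 0.21). The taurine importer Slc6a6 was not called, with log2 fold changes between -0.23 and 0.06.

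Among 33 carriers of sodium, potassium, calcium, protons, chloride and bicarbonate, 8 (24.2%) were called, beside 16.0% of all 262 carriers and 9.61% of all genes. Slc24a3, which exchanges calcium and potassium for sodium, fell with IL-4 in both genotypes. It was at -4.39, -4.05 and -5.04 in KO IL-4 arrays, against -2.47, -2.41 and -1.71 in KO vehicle arrays. It was at -2.65, -3.38 and -3.27 in control IL-4 arrays, against -1.27, -1.62, -1.19 and -1.73 in control vehicle arrays. None of the KO IL-4 arrays was well above background, so the level there has only a bound: it was at least 3.22-fold lower than in KO vehicle (adjusted p = 0.00149) and at least 1.72-fold lower than in control IL-4 (adjusted p = 0.0215). For each bound, the KO IL-4 value on an array was the lowest signal of any probe well above background there, or the probe's own signal where that was higher, and the mean of these was set against the brighter group's mean. In control cells IL-4 lowered Slc24a3 3.13-fold (log2 fold change -1.65 ± 0.27, SE, adjusted p = 0.00342). The call for HDAC3 loss under IL-4 was lost without KO IL-4 array 15 or control IL-4 array 9 or 12 (adjusted p between 0.0532 and 0.0803). With normexp background correction and quantile normalization the log2 fold changes of Slc24a3 were -0.77 for IL-4 in control cells and -0.65 for IL-4 in KO cells. For HDAC3 loss under IL-4 it was -0.36, without a call (adjusted p = 0.182). These falls are smaller than the fold size and the bounds above, which hold only for the main processing. Slc4a10, a sodium bicarbonate carrier, exceeded the background on 0 of 3 control IL-4 arrays and on 2 of 4 control vehicle arrays. The arrays of these groups overlapped, at -3.55, -3.99 and -4.32 with IL-4, against -2.65, -3.14, -3.56 and -3.83 with vehicle, and it did not pass (adjusted p = 0.754).

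Slc12a7 and Slc12a4 are potassium-chloride cotransporters, which lower cell volume. Slc12a7 fell with HDAC3 loss in vehicle, to 0.25, 0.06 and 0.47 in KO vehicle arrays, against 0.99, 1.03, 1.18 and 1.01 in control vehicle arrays (log2 fold change -0.79, adjusted p = 0.00843). That call was lost without KO vehicle array 6 (adjusted p = 0.0575), and under IL-4 the log2 fold change was -0.21 (adjusted p = 0.616). Slc12a4 rose with IL-4 in control cells (log2 fold change 0.59, adjusted p = 0.0201), a call lost without control IL-4 array 9 or 12 or control vehicle array 2 or 4 (adjusted p between 0.0529 and 0.0884).

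Slc4a7, which imports bicarbonate with sodium, fell with HDAC3 loss in both treatments. It was at 3.11, 3.12 and 3.23 in KO IL-4 arrays, against 3.62, 3.73 and 3.86 in control IL-4 arrays, and at 3.11, 3.04 and 3.02 in KO vehicle arrays, against 3.56, 3.45, 3.51 and 3.48 in control vehicle arrays. The log2 fold changes were -0.59 (adjusted p = 0.0039) under IL-4 and -0.44 (adjusted p = 0.0102) in vehicle, without overlap, and the call in vehicle was lost without KO vehicle array 6 (adjusted p = 0.0572). Of its other probes, 1 gave -0.56 and -0.56 and 1 gave -0.11 and 0.03. Slc9a9, a sodium-proton exchanger of endosomes, was called lower with IL-4 in control cells (log2 fold change -1.10, adjusted p = 0.0373), but its second probe, named by another accession, gave 0.76. That call was lost without KO IL-4 array 13 or 15, control IL-4 array 9 or 12, KO vehicle array 5 or control vehicle array 1, 2, 3 or 4 (adjusted p between 0.0503 and 0.149). Slc26a11, an anion exchanger, averaged 2.12 ± 0.35 in KO IL-4 and 1.39 ± 0.19 in control IL-4 arrays, against 2.23 ± 0.04 in KO vehicle and 1.97 ± 0.02 in control vehicle arrays (SD, n = 3, 3, 3 and 4). HDAC3 loss raised it under IL-4 (log2 fold change 0.73, adjusted p = 0.0219) and IL-4 lowered it in control cells (-0.58, adjusted p = 0.0369). The first call was lost without KO IL-4 array 14 or 15 or control IL-4 array 10 or 12 (adjusted p between 0.0701 and 0.101), and the second without control IL-4 array 10 or 12, KO vehicle array 5, 6 or 7 or control vehicle array 1, 2, 3 or 4 (adjusted p between 0.0535 and 0.179). Slc9a3r1, a scaffold that binds the sodium-proton exchanger Slc9a3 and is no carrier, rose with HDAC3 loss under IL-4 (log2 fold change 0.68, adjusted p = 0.0475) and in vehicle (0.69, adjusted p = 0.0277). The first was lost without KO IL-4 array 13 or 14, control IL-4 array 9, 10 or 12, KO vehicle array 5 or 6 or control vehicle array 1, 3 or 4 (adjusted p between 0.0663 and 0.164). The second was lost without KO vehicle array 5 or 6 or any of the control vehicle arrays (adjusted p between 0.0501 and 0.139).

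Of the 23 sugar carriers, 4 (17.4%) were called, beside 16.0% of all 262 carriers and 9.61% of all genes. The glucose carriers went opposite ways with IL-4 in control cells. Slc2a1 was at 5.23, 4.74 and 4.87 in control IL-4 arrays, against 4.37, 4.12, 4.31 and 4.31 in control vehicle arrays, a rise (log2 fold change 0.67, adjusted p = 0.011). Slc2a3 was at 0.69, 0.43 and 0.68 in control IL-4 arrays, against 1.58, 1.0, 1.51 and 1.35 in control vehicle arrays, a fall (log2 fold change -0.76, adjusted p = 0.0155). Neither pair of groups overlapped. The second Slc2a3 probe gave -0.22, and its call was lost without control IL-4 array 10 (adjusted p = 0.0731) or control vehicle array 3 (adjusted p = 0.0508). Slc37a3, of the sugar-phosphate carrier family, rose with IL-4 in control cells (log2 fold change 0.75, adjusted p = 0.0111). Slc45a4, of a family that carries sugars with protons, fell with IL-4 in control cells, where it was at 0.40, 0.28 and 0.35 with IL-4, against 0.98, 0.78, 0.98 and 1.04 with vehicle (log2 fold change -0.60, adjusted p = 0.00702). HDAC3 loss raised it under IL-4, to 0.74, 1.18 and 0.85 in KO IL-4 arrays (log2 fold change 0.58, adjusted p = 0.0202), a call lost without control IL-4 array 10 (adjusted p = 0.0842) or 12 (adjusted p = 0.0705). Its second probe gave -0.70 and 0.55 for these 2 comparisons.

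The 35 mitochondrial carriers included 6 (17.1%) that were called, beside 16.0% of all 262 carriers and 9.61% of all genes. Slc25a13, which exchanges aspartate for glutamate in the malate-aspartate shuttle, was at 2.41, 2.52 and 2.33 in KO IL-4 arrays, against 1.75, 1.83 and 1.44 in KO vehicle arrays. It was at 2.88, 2.61 and 2.80 in control IL-4 arrays, against 1.67, 1.30, 1.36 and 1.70 in control vehicle arrays. IL-4 arrays lay above vehicle arrays in both genotypes, by 1.68-fold in KO cells (log2 fold change 0.75 ± 0.14, SE, adjusted p = 0.0192) and 2.39-fold in control cells (log2 fold change 1.26 ± 0.14, SE, adjusted p = 0.000177). The KO call was lost without KO IL-4 array 13 or 14 or KO vehicle array 5 or 7 (adjusted p between 0.0505 and 0.0918). Its paralogue Slc25a12, with the same exchange activity, was not called in any comparison, with log2 fold changes of -0.15 in KO cells and 0.04 in control cells. Slc25a25, which exchanges ATP-magnesium for phosphate, rose with IL-4 in control cells (log2 fold change 0.49, adjusted p = 0.00564), with 0.72 from a second probe. Slc25a24, which has the same activity, was instead lower with HDAC3 loss under IL-4 (log2 fold change -0.41, adjusted p = 0.0219) and in vehicle (-0.33, adjusted p = 0.0397), but its second probe gave 0.11 and 0.06. The first was lost without KO IL-4 array 13 or 14 or control IL-4 array 9 or 12 (adjusted p between 0.0575 and 0.0835). The second was lost without any 1 of 11 arrays, namely KO IL-4 array 13 or 15, control IL-4 array 10 or 12 and all the vehicle arrays of both genotypes (adjusted p between 0.0501 and 0.21).

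Slc25a37, the mitochondrial iron importer mitoferrin-1, fell with IL-4 and rose with HDAC3 loss. It was at 3.85, 4.08 and 3.87 in KO IL-4 arrays, against 3.28, 3.55 and 3.32 in control IL-4 arrays, and at 4.54, 4.54 and 4.64 in KO vehicle arrays, against 4.22, 4.14, 4.15 and 4.12 in control vehicle arrays. The groups did not overlap within a treatment or within a genotype. IL-4 gave log2 fold changes of -0.64 in KO cells (adjusted p = 0.00556) and -0.77 in control cells (adjusted p = 0.000421), and HDAC3 loss gave 0.55 (adjusted p = 0.0103) under IL-4 and 0.42 (adjusted p = 0.0273) in vehicle. A second probe gave -0.42 and -0.70 for IL-4, and 0.18 and -0.10 for HDAC3 loss. The call under IL-4 was lost without control IL-4 array 12 (adjusted p = 0.0526), and the call in vehicle without any 1 of the vehicle arrays, KO 5, 6 and 7 and control 1, 2, 3 and 4 (adjusted p between 0.052 and 0.0982). Slc25a5, an exchanger of ADP and ATP with many near-identical gene copies that a probe may not tell apart, rose with IL-4 in control cells (log2 fold change 0.37, adjusted p = 0.0328). Its call was lost without control IL-4 array 10 or 12, KO vehicle array 5 or 6 or control vehicle array 1, 2 or 4 (adjusted p between 0.0514 and 0.159). Slc25a35 was lower with HDAC3 loss under IL-4, at -2.97, -2.52 and -3.31 in KO IL-4 arrays, against -1.55, -2.31 and -1.23 in control IL-4 arrays (log2 fold change -1.24, adjusted p = 0.0267), with 2 of the 3 KO IL-4 arrays well above background. The call was lost without KO IL-4 array 13 or 15 or control IL-4 array 9 or 12 (adjusted p between 0.0677 and 0.112).

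**Figure D3:**
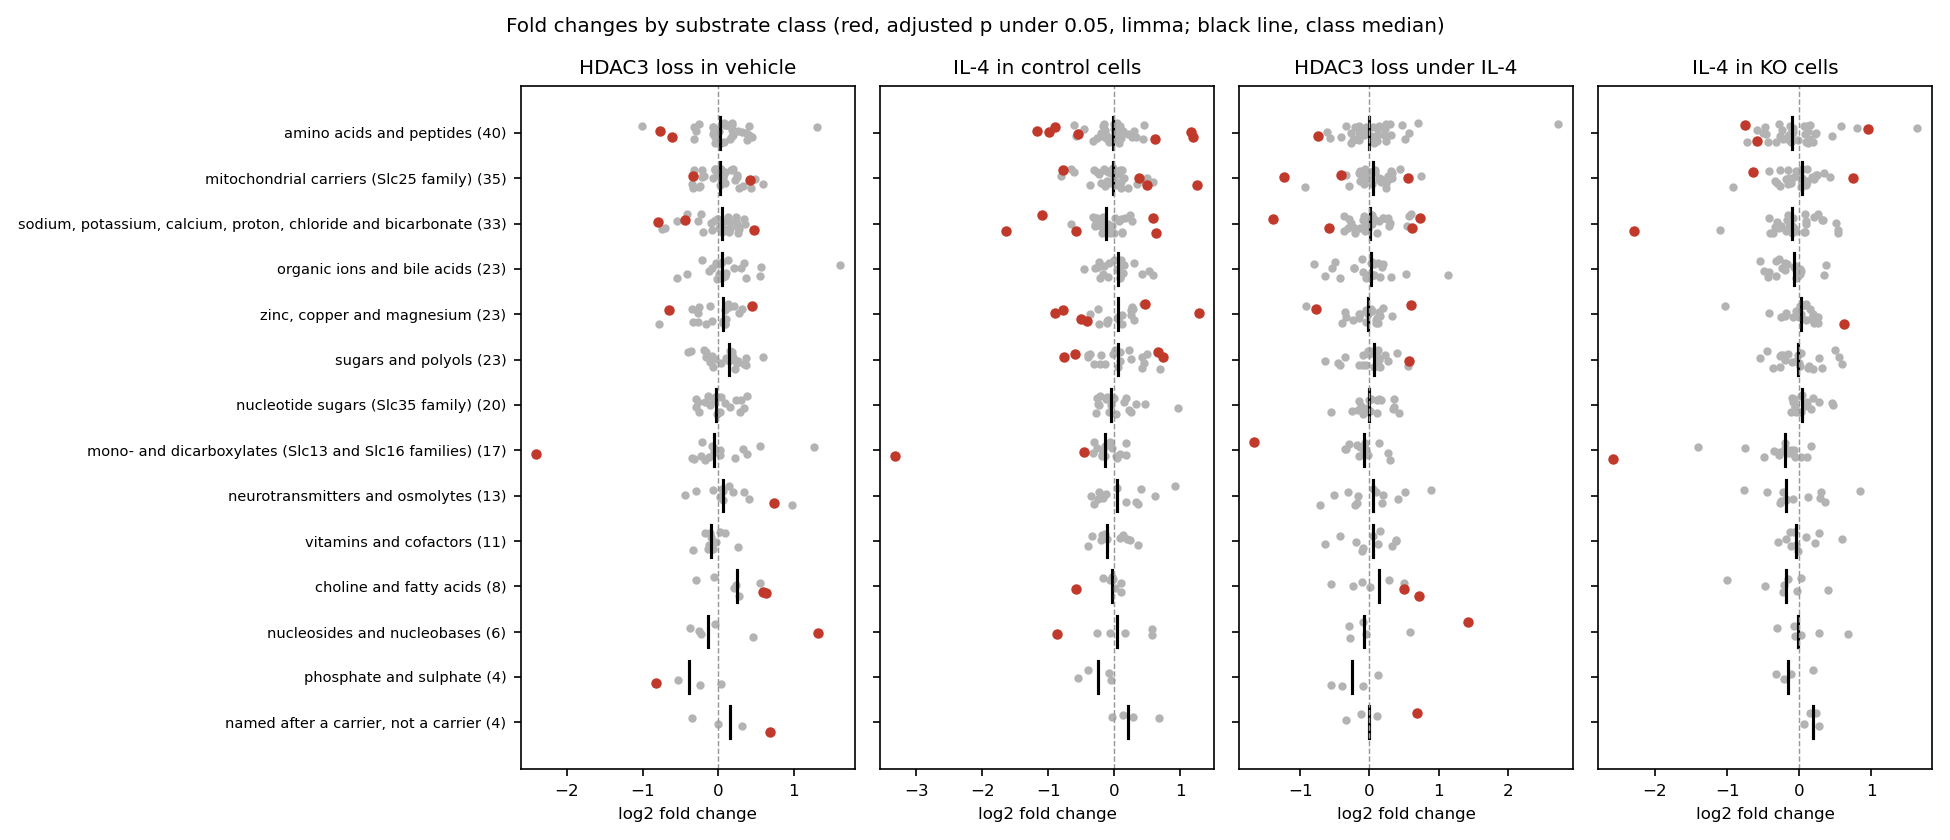
Log2 fold change (x axis) of each carrier, by substrate class (rows, number of carriers in parentheses, classes of at least 4), in the 4 comparisons (KO minus control or IL-4 minus vehicle); red points were called and black lines are class medians. The called carriers are spread over most classes, while the nucleotide sugar, organic ion and vitamin classes show none.

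No carrier of nucleotide sugars (Slc35 family, 20 genes), organic ions and bile acids (23), vitamins (11) or urea (2) was called in any comparison, against 9.61% of all genes called in at least 1. Class counts here and above are given as a description. Of the 4 phosphate and sulphate carriers, 1 (25%) was called, beside 16.0% of all 262 carriers and 9.61% of all genes. This was the sulphate importer Slc26a2, lower with HDAC3 loss in vehicle, at -2.79, -2.36 and -2.97 in KO vehicle arrays, against -1.80, -2.27, -1.48 and -2.0 in control vehicle arrays (log2 fold change -0.82, adjusted p = 0.0491). That call was lost without KO IL-4 array 13 or 14, control IL-4 array 9, 10 or 12, KO vehicle array 5 or 7 or control vehicle array 1, 3 or 4 (adjusted p between 0.0528 and 0.195). Some genes with large fold changes did not pass, and their arrays differed widely. Slc22a4, a carrier of ergothioneine, was at 1.02, 2.67 and 0.46 in KO IL-4 arrays, against 0.77, -0.07 and 0.06 in control IL-4 arrays, and at 1.29, 2.59 and 0.44 in KO vehicle arrays, against 0.15, -0.34, -0.43 and -0.04 in control vehicle arrays. In vehicle the groups did not overlap, with a log2 fold change of 1.60 ± 0.54 (SE, adjusted p = 0.153), and KO arrays 14 and 6, which lay on the same slide, were the highest. Slc36a2, a proton-coupled carrier of small amino acids that lay outside the naming rule, was at 0.92, -2.77 and 0.68 in KO IL-4 arrays, against -2.55, -3.43 and -3.35 in control IL-4 arrays (log2 fold change 2.72 ± 0.87, SE, adjusted p = 0.14). It was the highest value of any carrier in that comparison, and KO IL-4 array 14 lay within the range of the control IL-4 arrays. With vehicle, Slc36a2 was at -1.38, -3.33 and -1.35 in KO arrays, against -3.92, -2.66, -2.89 and -3.83 in control arrays, and the low KO array 6 shared its slide with array 14. Its neighbour in the family, Slc36a1, was also lowest among KO arrays on these 2, at 0.65 and 0.83.

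Each effect was measured in 2 sets of arrays that share none. The 2 sets lay on shared slides, however, and their calls came from the same fit, with the same variance for a gene in both. Whether the 2 sets share mice was not tested, so the overlaps below are not counts of independent repeats. For HDAC3 loss, 7 carriers were raised in both treatments, 77.8% of the 9 raised under IL-4 and 87.5% of the 8 raised in vehicle, among them Slc29a1, Slc44a1, Slc44a2, Slc9a3r1, Slc31a1 and Slc25a37. Those lowered in both were Slc13a3, Slc7a5, Slc4a7 and Slc25a24, 57.1% of the 7 under IL-4 and 50% of the 8 in vehicle. Over all genes, 268 were raised by HDAC3 loss in both treatments (62.9% of the 426 under IL-4 and 53.3% of the 503 in vehicle) and 244 were lowered (72.4% of 337 and 51.9% of 470). For IL-4, Slc1a5, Slc25a13 and Slc30a4 were raised in both genotypes, 100% of the 3 in KO cells and 25% of the 12 in control cells. Slc13a3, Slc24a3, Slc25a37 and Slc43a2 were lowered in both, 80% of the 5 in KO cells and 22.2% of the 18 in control cells. Over all genes, 213 were raised by IL-4 in both genotypes (87.3% of the 244 in KO cells and 36.9% of the 577 in control cells) and 170 were lowered (80.2% of 212 and 28.5% of 597). Over the 262 carriers, Pearson's r between the HDAC3 effects under IL-4 and in vehicle was 0.606, beside 0.559 over all 20595 genes, and r between the IL-4 effects in KO and control cells was 0.662, beside 0.617. These are correlations across genes, which are not independent replicates and share the arrays' depth.

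**Figure D4:**
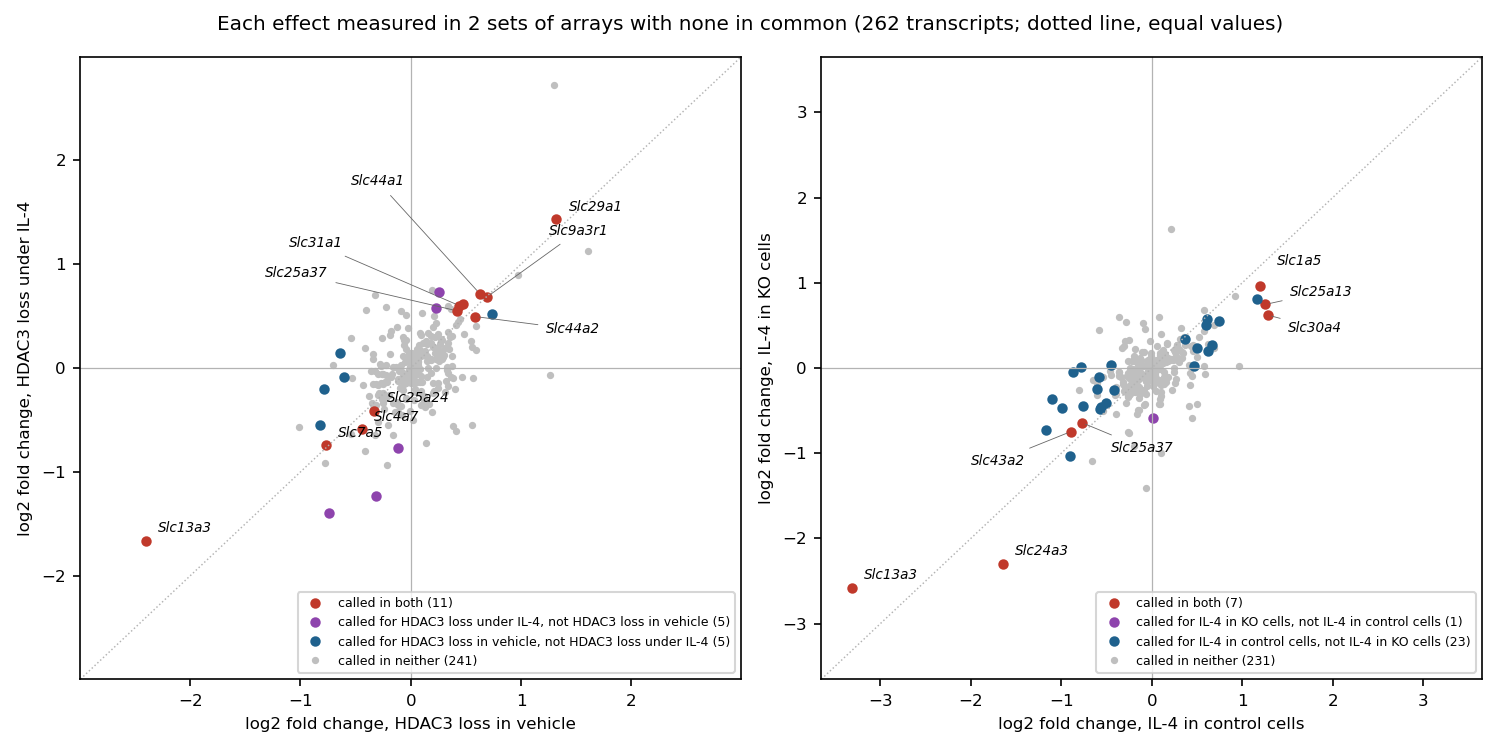
Log2 fold changes of the 262 carriers for HDAC3 loss under IL-4 against HDAC3 loss in vehicle (left) and for IL-4 in KO cells against IL-4 in control cells (right), coloured by where they were called. Carriers called in both (11 on the left, 7 on the right) lie in the quadrants of equal sign, and 23 carriers were called for IL-4 in control cells and not in KO cells.

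Although IL-4 passed the threshold for fewer carriers in KO than in control cells, the test of the difference between the responses called 0 of 262 carriers in either direction, against 0% and 0.00486% of genes (1 gene, lower). At an unadjusted p under 0.05 there were 16 carriers (6.11%), beside 804 genes (3.90%), and the other limma settings tried also called 0. Beside Slc28a2 and Slc30a4, the smallest unadjusted p belonged to Slc39a13 (difference 0.79 ± 0.21, SE, unadjusted p = 0.00269), Slc7a3 (-0.60 ± 0.16, SE, unadjusted p = 0.00308) and Slc7a7 (0.52 ± 0.17, SE, unadjusted p = 0.00922), with adjusted p of at least 0.806. For Slc39a13 and Slc7a7 the KO vehicle level already lay below that of control vehicle arrays: Slc39a13 averaged 1.48 ± 0.32 in KO IL-4 and 1.33 ± 0.16 in control IL-4 arrays, against 1.47 ± 0.10 in KO vehicle and 2.11 ± 0.11 in control vehicle arrays (SD, n = 3, 3, 3 and 4).

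Carriers that bear other names and proteins that regulate carriers were set beside the Slc genes. How the calls of these genes fare without single arrays or under other settings is not reported here. Of 54 carriers with other names, 5 rose and 1 fell with HDAC3 loss in vehicle, 4 rose and 2 fell with IL-4 in control cells, 0 rose and 1 fell with IL-4 in KO cells, and 3 rose and 3 fell with HDAC3 loss under IL-4. In the same order, the shares of all genes called higher and lower were 2.44% and 2.28%, 2.8% and 2.9%, 1.18% and 1.03%, and 2.07% and 1.64%. HDAC3 loss raised Brp44l, the earlier name of a subunit of the mitochondrial pyruvate carrier, by 0.90 (adjusted p = 0.012) under IL-4 and 0.73 (adjusted p = 0.0217) in vehicle on the log2 scale. It also raised Sidt2, a lysosomal membrane protein (0.95 and 1.03, adjusted p = 0.00123 and 0.000349), and Mfsd6 (0.85 and 0.77, adjusted p = 0.00112 and 0.000933). In vehicle it further raised Tmem165, of the Golgi (1.28, adjusted p = 0.00276), and Tusc3 (0.48, adjusted p = 0.0287). Sfxn5, of the mitochondrial sideroflexin family, fell in all 4 comparisons, by 0.57 for HDAC3 loss under IL-4, 0.71 for HDAC3 loss in vehicle, 0.64 for IL-4 in KO cells and 0.78 for IL-4 in control cells (adjusted p = 0.0108, 0.00157, 0.0072 and 0.000554). IL-4 in control cells raised Slco2a1, a prostaglandin carrier (1.42, adjusted p = 0.00885), Tusc3 (0.87, adjusted p = 0.000569), Ank, which releases pyrophosphate or its precursors (0.85, adjusted p = 0.00205), and Tmem165 (0.82, adjusted p = 0.0312), and lowered Mfsd6 (-0.47, adjusted p = 0.0153). HDAC3 loss under IL-4 lowered Slco2a1 (-1.35, adjusted p = 0.0257) and Sidt1 (-0.53, adjusted p = 0.0494). Slco2a1 averaged -2.28 ± 0.41 in control IL-4 arrays, against -3.71 ± 0.44 in control vehicle and -3.635 ± 0.15 in KO IL-4 arrays (SD). The lower levels are as dim as Slc names that missed detection, so neither fold change of Slco2a1 has a settled size.

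Of 17 partners and regulators, Arrdc4, an arrestin-like protein that restrains glucose uptake, averaged 1.80 ± 0.33 in KO vehicle and 0.53 ± 0.26 in control vehicle arrays (log2 fold change 1.26, adjusted p = 0.00496). With IL-4 it averaged 1.95 ± 0.30 in control cells, above the control vehicle arrays (log2 fold change 1.41, adjusted p = 0.00179). Ezr, which links membrane carriers to actin through Slc9a3r1, rose with IL-4 in control cells (0.58, adjusted p = 0.0387). Sgk1, a kinase that raises the surface level of several carriers, and Rsc1a1, a regulator of glucose carriers, rose with HDAC3 loss under IL-4 (0.54 and 0.57, adjusted p = 0.0107 and 0.0318). These partners numbered 1 raised and 0 lowered, 2 and 0, 0 and 0, and 2 and 0 for HDAC3 loss in vehicle, IL-4 in control cells, IL-4 in KO cells and HDAC3 loss under IL-4, beside 2.44% and 2.28%, 2.8% and 2.9%, 1.18% and 1.03%, and 2.07% and 1.64% of all genes.

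The rule's threshold lay among dim transcripts. The 13 carriers detected in full in 1 group only had mean levels there between -3.52 and -2.79, and the 17 names that missed by 1 array lay between -3.95 and -3.14. The 2 ranges overlap, so membership near the threshold turned on a single array.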

How the data were processed

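The authors deposited 1 scanner file per array. Per the file headers, Agilent Feature Extraction 10.5.1.1 gave each spot an intensity, background-subtracted and detrended, on probes placed on mm9, and the submitters' processing notes name version 9.53 and limma. RNA was amplified with the NuGEN Ovation V2 kit and labelled with Cy3, per the labels. The authors' table of processed values, used as an alternative, held intensity on a linear scale (median 181 or 181.5 on every array, r of at least 0.998 with the scanner intensity on a log2 scale); how it was normalized is not given in the sources used here.

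Spots flagged as outliers and control spots were dropped, no spot was saturated, and the log2 of the deposited intensity minus each array's 75th percentile was fitted for 20595 genes, each by its brightest detected probe, in limma 3.58.1 (R 4.3.3; lmFit and eBayes, 4 group means, 13 arrays, 4 slides), with Benjamini-Hochberg adjustment over all genes. Carriers and lists were chosen with earlier results of these data known. Named carriers are the largest calls in each direction (up to 12 for IL-4 in control cells and HDAC3 loss in vehicle, up to 8 for the other comparisons), the 5 smallest unadjusted p for the difference of responses, up to 3 per class by adjusted p, a fixed list, those dim in a whole group, and called members of 2 further lists. The number of arrays limits the precision. The code was tested on simulated data. Alternatives were other normalizations, filters, probe rules, slide blocks, variance settings, the compared groups alone and each array left out. Of the called carriers, 2 are counted but not reported here by name.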

Additional observations from a re-analysis of the deposited data

Results flagged for a closer look

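Of 89 named carriers tested for a far array among the 4 control vehicle arrays, 6 had one by Dixon's criterion (critical value 0.829), and chance flags about 1 in 20. Slc17a5 was high on array 1 (-1.53, others -2.05 to -2.0). The other 5 were low on array 2: Slc19a2 (5.45, others 5.65 to 5.69), Slc38a9 (0.0677, others 0.449 to 0.5), Slc44a3 (-1.97, others -1.75 to -1.72), Slc6a8 (1.56, others 1.95 to 2.0) and Slc9a3r1 (0.498, others 0.866 to 0.889). Without array 2, Slc6a8 and Slc9a3r1 lost their calls for HDAC3 loss in vehicle (adjusted p = 0.116 and 0.0722).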

How the results depend on the processing

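Of 69 calls on named carriers, 30 held without each array in turn, 17 held under every alternative and none changed sign. Counts of carriers called are given as higher and lower. With median scaling they were 1 and 3 for HDAC3 loss in vehicle (8 and 8 as reported), 2 and 2 for IL-4 in KO cells (3 and 5), 3 higher for HDAC3 loss under IL-4 (9) and 8 lower for IL-4 in control cells (18). Normexp followed by quantile normalization gave 14 lower for HDAC3 loss in vehicle and 6 and 13 for IL-4 in KO cells. There quantile normalization alone and the authors' values each gave 8 lower. With no filter on dim probes there were 4 higher for HDAC3 loss in vehicle, 11 lower for IL-4 in control cells, 3 lower for IL-4 in KO cells and 4 lower for HDAC3 loss under IL-4; a stricter filter gave 5 higher for IL-4 in KO cells. The mean of probes gave 5 and 4 for HDAC3 loss in vehicle and 3 lower for IL-4 in KO cells. Slide as a fixed block gave 5 and 5 for HDAC3 loss in vehicle and 4 lower for HDAC3 loss under IL-4. With the compared groups alone, which leaves fewer samples, there were 0 and 1 for IL-4 in KO cells and 0 and 0 for HDAC3 loss under IL-4. Trend and robust variance gave 7 higher for IL-4 in KO cells. Without KO IL-4 array 15 and control vehicle array 4 together, chosen after seeing the data, the counts were 5 and 5 for HDAC3 loss in vehicle, 11 lower for IL-4 in control cells, 1 and 2 for IL-4 in KO cells and 2 lower for HDAC3 loss under IL-4. Where not stated here, the cause was not tested.

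Leaving out 1 array at a time gave 3 to 9 higher and 3 to 8 lower for HDAC3 loss in vehicle, 8 to 13 and 10 to 23 for IL-4 in control cells, 1 to 4 and 3 to 6 for IL-4 in KO cells, 4 to 10 and 2 to 8 for HDAC3 loss under IL-4, and 0 and 0 for the difference of responses. No separate pairing by array number was made. The numbers differ between groups but run in step with the slides, arrays 1, 5, 9 and 13 lying on slide 1, for example. A pairing by number would thus follow the slide, which holds arrays of several groups and served as the block above. Signal over background limits carriers on control vehicle array 4 and KO IL-4 array 15 most.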
